A study of Homo sapiens with 40 samples.

Results

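Human lymphoma cells of the line OCI-Ly3 were kept with the cytokine IL-10 for 1 to 4 days, and their RNA was compared with that of untreated cells on spotted 2-colour microarrays. The arrays were taken by their labels alone: IL-10 in OCI-Ly3 at 24 h (2 arrays), 48 h (1 array) and 96 h (1 array), which are 4 of the 40 arrays of the series. OCI-Ly3 is an established line of the activated B cell-like subgroup of diffuse large B-cell lymphoma. IL-10 was given at 50 ng/ml, the RNA of treated cells carried Cy5, and the RNA of untreated OCI-Ly3 cells carried Cy3 on the same array. The labels name no transgene and no other agent in these cells. For comparison, the same treatment was measured at 1, 3 and 6 h (2 arrays each, the early arrays), and IL-6 at 50 ng/ml was measured once at 24 h in OCI-Ly10, another line of the same lymphoma subgroup, against untreated OCI-Ly10.

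IL-10 binds a receptor made of IL10RA and IL10RB, which activates JAK kinases and the transcription factor STAT3. In B cells IL-10 is known for promoting survival, surface MHC class II and, together with other signals, maturation towards antibody-secreting plasma cells. PRDM1 (Blimp-1) and XBP1 are transcription factors of the plasma cell, BCL6 and PAX5 are factors of germinal centre and mature B cells, and IRF4 serves both programmes at different doses. CIITA is the co-activator that switches on MHC class II genes.

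Each value is a log2 ratio of treated over untreated cells, centred so that the median probe of each array is 0. The deposited base of the logarithm is not stated and was read as 2. The late mean is the mean of the 24, 48 and 96 h values, given with its standard error (SE) from limma, and a gene is called higher or lower, or said to have risen or fallen, where limma's Benjamini-Hochberg adjusted p was under 0.05. The untreated RNA enters only as the other channel, and it is unknown if the same untreated RNA served several arrays. If it did, the test against 0 leaves out the spread among untreated cultures. Whether replicates came from separate cultures is not stated in the labels, so the spread between replicates may be technical. The p-values take that spread from replicates of all experiments of the series, fitted together, and with the IL-10 arrays alone 818 genes were called late in place of 1244. No dye was swapped, and dye and treatment cannot be told apart. A ratio shows no level, so the identity of the cells could not be checked from their markers' abundance. Fewer cells in a given state and less RNA per cell cannot be told apart in such bulk RNA.

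The 4 arrays measured 14026 to 14123 of 15246 probes. The 96 h array had the widest spread of log2 ratios (SD 0.599, against 0.380 to 0.461 on the other late arrays). Across genes, pairs of late arrays correlated at 0.589 (24 h replicates 1 and 2) to 0.789 (48 h and 96 h). The array identifiers fall into runs of consecutive numbers: 24 h replicate 1 lay in a run with the replicate 1 arrays of 1, 3 and 6 h, 24 h replicate 2 in another with the replicate 2 arrays, and 48 h and 96 h in a run that held no earlier time. Times after 24 h and that run therefore cannot be told apart.

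Over the 4 late arrays, 1244 of 4442 genes tested were called (28.0%), of which 630 were higher (14.2%) and 614 lower (13.8%). Of these, 72 were higher by at least 1 on the log2 scale and 35 were lower by at least 1. The median late mean of all genes was -0.02. Without the 96 h array 713 of 4349 genes were called, 399 higher and 314 lower. With every array scaled to the same spread 791 of 4442 were called, 427 higher and 364 lower. Taken singly, 24 h gave 434 called genes of 4397 (9.87%), 241 higher (5.48%) and 193 lower (4.39%). The 48 h array gave 279 of 4497 (6.2%), 201 higher (4.47%) and 78 lower (1.73%), and the 96 h array 663 of 4508 (14.7%), 378 higher (8.39%) and 285 lower (6.32%). The 24 h count was 260 without its replicate 1 and 161 without its replicate 2. At 96 h 57.0% of the calls were higher, and 72.8% of the 169 calls were higher after scaling.

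The genes highest after days of IL-10 were a chemokine, a B cell migration receptor, a retinol dehydrogenase, the plasma cell factor PRDM1 and the checkpoint ligand CD274. CXCL9, a chemokine best known as a target of interferon gamma, had log2 ratios of 3.01 and 4.33 at 24 h, 3.79 at 48 h and 5.02 at 96 h. All 4 late values lay above its 6 early values, the highest of which was 2.60. Its late mean was 4.16 (SE 0.18), a 17.9-fold higher ratio (adjusted p = 2e-12). GPR183 (EBI2), the oxysterol receptor that guides activated B cells to the edge of the follicle, stood at 4.30 and 3.27 at 24 h, 3.40 at 48 h and 4.00 at 96 h. Its late values overlapped the early ones, of which the highest was 3.79 at 6 h, and its late mean was 3.73 (SE 0.14, adjusted p = 2.6e-13).

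DHRS9, a short-chain dehydrogenase that acts on retinol, rose with each later time, from 2.31 and 2.30 at 24 h through 2.99 at 48 h to 4.08 at 96 h (late mean 3.13, SE 0.10). CD274 (PD-L1), the ligand of the inhibitory T cell receptor PD-1, stood at 1.95 and 2.52 at 24 h, 2.69 at 48 h and 3.29 at 96 h (late mean 2.74, SE 0.10, adjusted p = 8.7e-12). Every late value of both genes was above every early one. CXCL13, the chemokine that draws CXCR5-bearing cells into follicles, was at 0.51 and 1.38 at 24 h and reached 2.35 at 48 h and 3.29 at 96 h. Here the late and early arrays overlapped, since the 24 h replicate 1 value lay below a 6 h value of 1.08. The other genes of the 12 highest had late means of 1.91 to 2.47. They were PTPN1 (a tyrosine phosphatase that dampens JAK signalling), ST8SIA4 (a polysialyltransferase), AIM2 (a sensor of cytosolic DNA), SOCS2 (a feedback inhibitor of cytokine receptors), GLRX (glutaredoxin) and MNDA (a nuclear protein of myeloid cells and some B cells).

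The lowest genes included 2 cytokines of the TNF family, an NF-kB-regulated chemokine and a cyclin. TNF was at -2.30 and -2.12 at 24 h, -2.05 at 48 h and -2.45 at 96 h, a nearly level series with a late mean of -2.23 (SE 0.08, adjusted p = 2.6e-13). LTA (lymphotoxin alpha), its neighbour in the same family, varied far more, with -0.56 and -2.64 at 24 h, -1.91 at 48 h and -3.12 at 96 h. The 24 h replicate 1 value of LTA lay inside its early range of -1.01 to -0.09. CCND2 (cyclin D2), which drives entry into the cell cycle, was at -1.39 and -1.68 at 24 h, -2.28 at 48 h and -2.31 at 96 h. Its early values lay between -0.32 and 0.31, so the groups did not overlap (late mean -2.04, SE 0.11, adjusted p = 4.3e-11). HTR3A, a serotonin-gated ion channel, was lowest at 24 h, at -2.64 and -3.25, and stood at -1.70 at 48 h and -1.17 at 96 h.

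The other genes of the 12 lowest had late means of -1.87 to -1.47. They were CCL22 (a chemokine), THOC2 (mRNA export, measured on 3 of the late arrays), ICOSLG (a costimulatory ligand), DUSP5 (a phosphatase of ERK), MACROD2, ALCAM (an adhesion molecule), INSIG1 (a brake on sterol synthesis) and ADIRF. ICOSLG rests on probes that disagreed. A probe read on all 4 arrays gave -0.89, -0.89, -0.79 and -1.22 (24 h replicates 1 and 2, 48 h, 96 h), and another, read on 2 of them, gave -0.43 at 24 h and -6.50 at 96 h. The late mean of ICOSLG of -1.81 is therefore set largely by a single spot.

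**Figure D1:**
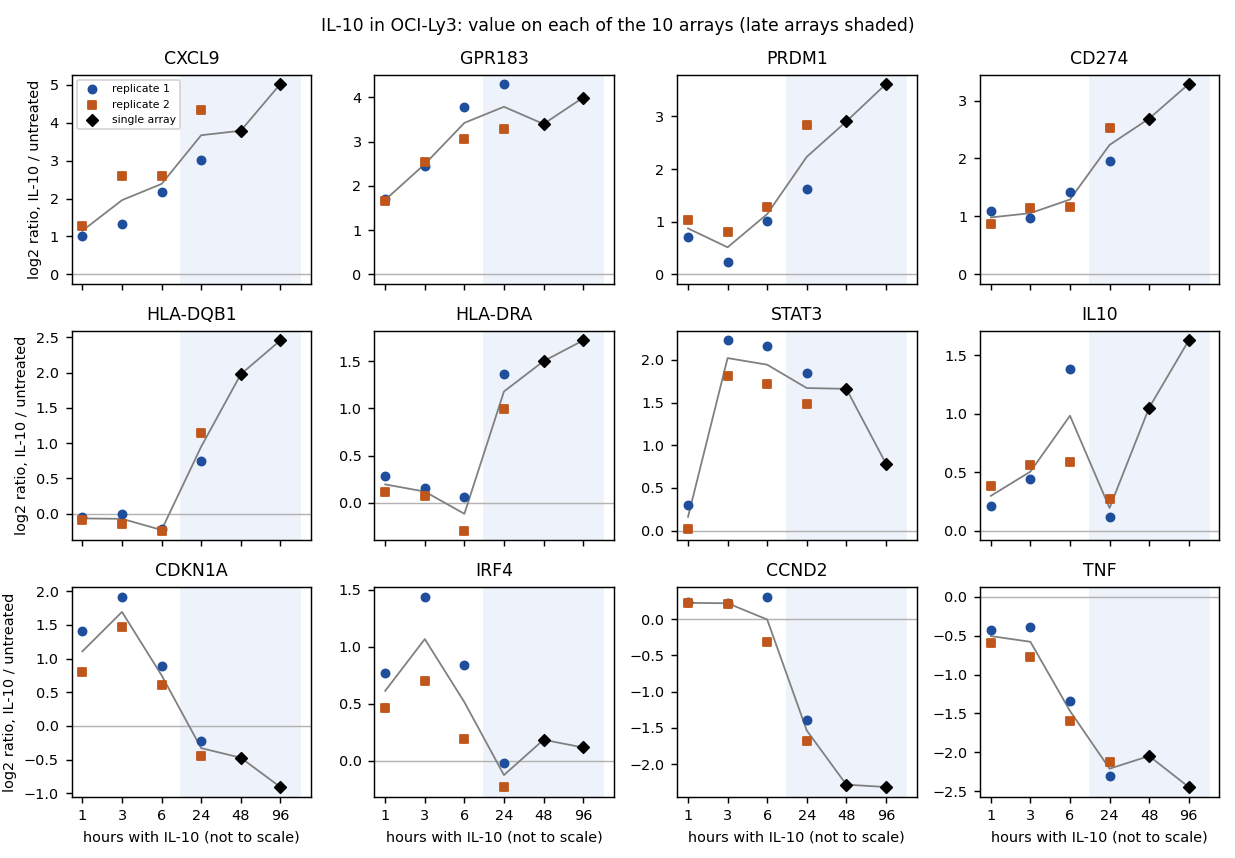
Log2 ratio of IL-10-treated over untreated OCI-Ly3 cells on each of the 10 arrays for 12 genes, by hours with IL-10 (spaced evenly, not to scale). Circles and squares are replicates 1 and 2, diamonds are single arrays, the line joins means, and shading marks the late times; CCND2 is near 0 to 6 h and at -2.31 at 96 h, while CDKN1A and IRF4 are highest at 3 h.

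The plasma cell list was led by PRDM1, but most of its members did not follow. PRDM1 was at 1.62 and 2.84 at 24 h, 2.90 at 48 h and 3.61 at 96 h, all above its highest early value of 1.28 (late mean 2.92, SE 0.14, adjusted p = 6.1e-12). Its 3 probes had late means of 2.52 to 3.34. XBP1, the factor that builds the secretory apparatus of plasma cells, went the other way, with -0.41 and -0.55 at 24 h, -0.39 at 48 h and -0.46 at 96 h (late mean -0.44, SE 0.10, adjusted p = 0.0022). The late values of XBP1 lay close together but overlapped an early value of -0.53 at 6 h. CD38, an ectoenzyme abundant on plasma cells, was lower on all 4 arrays, between -1.15 and -0.69 (late mean -0.90, SE 0.09), as was SLAMF7 (-0.49, -0.70, -0.80 and -1.36, late mean -0.92). Of 16 tested members of the list, 4 rose and 3 fell, beside 14.2% and 13.8% of all genes, and their median was -0.02, the same as that of all genes. The others that rose, chosen here because the count is small, were CD9 (late mean 0.37), POU2AF1 (0.34) and LGALS1 (0.31). The call of POU2AF1 was lost without the 96 h array (adjusted p = 0.076).

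IRF4 was not called late, at -0.02 and -0.23 at 24 h, 0.18 at 48 h and 0.12 at 96 h (late mean 0.06, SE 0.13, adjusted p = 0.78). Its 6 early values were 0.19 to 1.44, and the late mean was 0.67 below the early mean of 0.73 (adjusted p = 0.0095 for the difference). With the IL-10 arrays fitted alone, that difference was not called (adjusted p = 0.103). Genes of the secretory pathway and unfolded protein response, which plasma cells need in bulk, had 0 of 24 tested members risen and 7 fallen. Of all genes 14.2% rose and 13.8% fell, and the median of the list was -0.18. ATF4, a stress-response factor, had a late mean of -0.81 (SE 0.14), SEC61A1, the core of the protein-translocating channel, one of -0.77 (SE 0.12), and LMAN1, a cargo receptor between the endoplasmic reticulum and the Golgi, one of -0.76 (SE 0.13). Without the 96 h array 5 members fell, beside 314 of all 4349 genes tested. Of 5 measured immunoglobulin genes 1 was called, beside 28.0% of all genes. It was IGHD, the delta heavy chain (late mean 0.41), and its call was lost without the 96 h array (adjusted p = 0.088).

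Genes of the B cell and germinal centre stage went both ways. BCL6, the repressor that holds the germinal centre programme and is opposed by PRDM1, was higher on all 4 late arrays, at 1.01 and 0.65 at 24 h, 0.66 at 48 h and 0.56 at 96 h (late mean 0.69, SE 0.08, adjusted p = 1.7e-06). Its probes disagreed. Of the 3 read on all 4 late arrays, 1 gave 1.24 to 1.92, another 0.81 to 1.42 and the other -0.31 to 0.14. The late mean of PAX5 was 0.04 (SE 0.09, adjusted p = 0.74), with values of -0.12, -0.03, 0.14 and 0.07. Of 31 tested members of the B cell and germinal centre list, 7 rose and 9 fell, beside 14.2% and 13.8% of all genes, with a median of 0.04. The largest falls were in TCL1A, a co-activator of AKT (-1.67, -1.74, -1.14 and -1.13), CD24, a surface glycoprotein of immature and activated B cells (-0.37, -1.23, -1.09 and -1.19), and CD83, a surface marker of activation (-0.77, -1.17, -1.01 and -0.94). One of the 7 probes of CD24 stayed between -0.03 and 0.27. Also lower, and chosen after their values were seen, were FCER2, the low-affinity IgE receptor (late mean -0.75), ETS1, a transcription factor that restrains plasma cell formation (-0.64), CD79A, a signalling chain of the B cell receptor (-0.59), and the transcription factors IRF8 (-0.45), ID3 (-0.36) and SPI1 (-0.29). The largest rises in the list were in CD72, an inhibitory co-receptor (0.26, 0.46, 0.66 and 1.53, late mean 0.85), CIITA (late mean 0.79) and FCRLA, an intracellular Fc receptor-like protein (0.75). PRDM1 and BCL6 were thus both higher in the same cultures, and whether this was in the same cells cannot be read from bulk RNA.

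MHC class II genes were higher after days of IL-10. Of 29 listed members 19 were tested, 13 rose, beside 14.2% of all genes, and 1 fell, with a median of 0.61, beside -0.02 for all genes. Taken by time, 9 of 18 rose at 24 h, 10 of 19 at 48 h and 11 of 19 at 96 h, and 1, 0 and 1 fell. Of all genes 5.48%, 4.47% and 8.39% rose at these times, and 4.39%, 1.73% and 6.32% fell. HLA-DQB1 (a beta chain of the peptide-binding dimer) was at 0.75 and 1.15 at 24 h, 1.97 at 48 h and 2.45 at 96 h (late mean 1.79, SE 0.07, adjusted p = 1.4e-12). HLA-DQA1, its partner alpha chain, was at 0.49 and 0.71 at 24 h, 1.87 at 48 h and 2.57 at 96 h (late mean 1.68, SE 0.08). Both lay at or below 0.03 on every early array, so the late and early values did not overlap. HLA-DRA, the alpha chain shared by all HLA-DR dimers, was already high at 24 h, at 1.37 and 0.99, and stood at 1.50 at 48 h and 1.72 at 96 h (late mean 1.47, SE 0.08, adjusted p = 1.2e-10). Of the 6 probes of HLA-DQA1, 5 agreed, at 2.40 to 3.32 at 96 h, and the other read 0.16.

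CIITA also rose, at 0.31 and 0.77 at 24 h, 0.79 at 48 h and 1.04 at 96 h (late mean 0.79, SE 0.10, adjusted p = 5.7e-06). The CIITA value of 24 h replicate 1 lay below an early value of 0.40. CD74, the invariant chain that fills the class II groove during transport, moved little, with 0.46, 0.05, 0.45 and 0.53 (late mean 0.41, SE 0.13, adjusted p = 0.021). That call was lost without the 96 h array (adjusted p = 0.12), without the 48 h array (0.0645) and without 24 h replicate 1 (0.0785). MARCHF1, a ubiquitin ligase that removes class II from the surface, was at 1.30, 1.12, 1.47 and 1.83 (late mean 1.50). The probe of MARCHF1 with the most values read 0.25 at 96 h, where the others read 1.76 to 2.56, and with it alone the gene was not called (adjusted p = 0.255). Of the other class II chains, HLA-DMB, part of the peptide-exchange catalyst, had a late mean of 1.20, HLA-DPA1 one of 1.10, HLA-DRB1 one of 0.98 and HLA-DPB1 one of 0.87. HLA-DOB, part of the inhibitor of that catalyst, was measured on 3 late arrays (late mean 0.56, adjusted p = 0.049). Of the complex that binds the X box, RFX5 was at 0.38, 0.43, 0.68 and 0.74 (late mean 0.61) and RFXANK had a late mean of 0.57. The tested members that were not called were IFI30, CTSS, NFYA, NFYC and RFXAP. LGMN, a lysosomal protease that cuts antigens, was the member that fell (-0.69, -0.81, -0.98 and -1.53, late mean -1.09). HLA genes are near-identical in places, and cross-hybridisation between them was not tested.

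**Figure D2:**
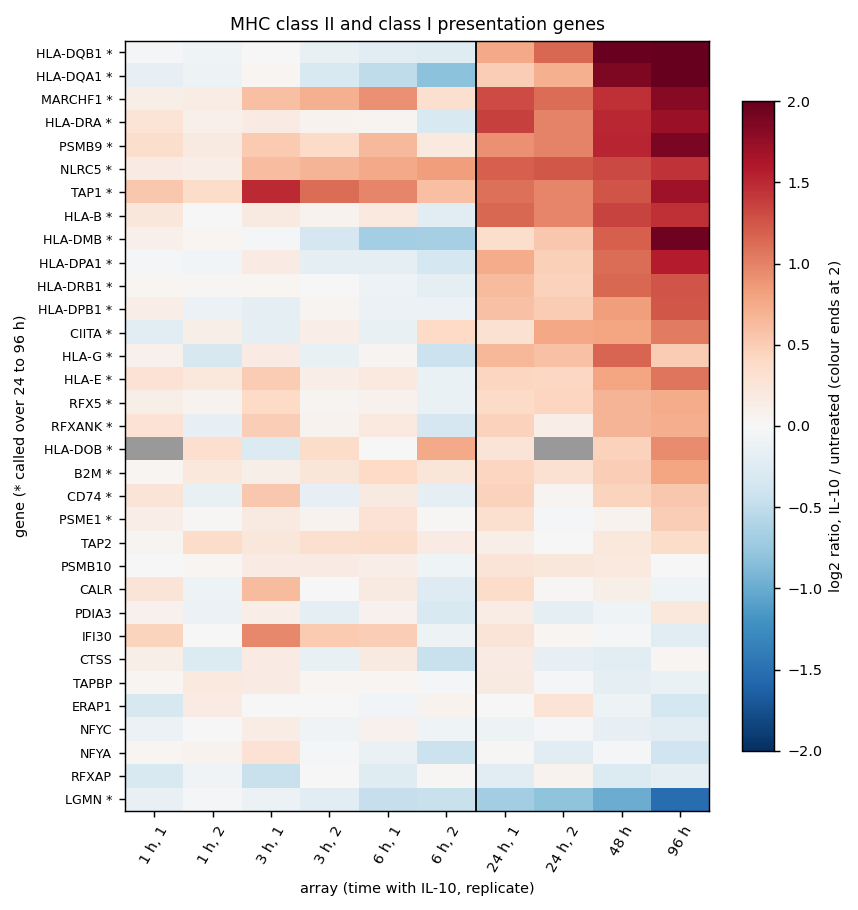
Log2 ratio of treated over untreated cells for the tested MHC class II and class I presentation genes (rows, ordered by late mean) on the 10 arrays (columns, by hours with IL-10 and replicate); grey is no value and asterisks mark genes called over the late arrays. HLA-DQB1 and HLA-DQA1 are pale to 6 h and reach 2.45 and 2.57 at 96 h, beyond the end of the colour scale at 2.

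Class II promoters are known for an X box and a Y box, the latter a CCAAT sequence that is often found inverted, as ATTGG, and bound by the factor NF-Y. The stretches below show where these letters stand in 6 class II list genes that rose, to place the box beside the values. They come from RefSeq's promoter table on GRCh38.p14 and are written 5′ to 3′ on the gene's strand, from base -130 to base -31 relative to the annotated start, with CCAAT or ATTGG in capitals.
HLA-DQA1, chr6:32637276-32637375, plus strand: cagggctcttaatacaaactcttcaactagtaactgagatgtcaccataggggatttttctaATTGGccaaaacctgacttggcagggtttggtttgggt
HLA-DQB1, chr6:32666688-32666787, minus strand: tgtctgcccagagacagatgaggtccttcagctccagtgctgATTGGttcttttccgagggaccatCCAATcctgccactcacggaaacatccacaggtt
HLA-DPB1, chr6:33075860-33075959, plus strand: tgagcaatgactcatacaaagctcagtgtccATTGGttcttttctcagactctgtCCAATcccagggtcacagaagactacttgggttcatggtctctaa
HLA-DRB1, chr6:32589879-32589978, minus strand: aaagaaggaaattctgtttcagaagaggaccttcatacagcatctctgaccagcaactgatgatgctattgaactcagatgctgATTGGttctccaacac
HLA-DOB, chr6:32817033-32817132, minus strand: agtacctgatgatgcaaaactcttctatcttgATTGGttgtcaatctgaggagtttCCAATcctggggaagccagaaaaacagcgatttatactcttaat
CD74, chr5:150412941-150413040, minus strand: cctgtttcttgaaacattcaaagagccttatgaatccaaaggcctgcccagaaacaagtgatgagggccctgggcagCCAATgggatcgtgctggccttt

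In HLA-DQB1, HLA-DPB1 and HLA-DOB an ATTGG and a CCAAT stood 24 bases apart from start to start. Over the 250 bases before the start, on either strand, 9 of the 11 list genes that rose and have an entry held CCAAT, beside 33.0% of 27305 promoters of that length. The late means of the genes shown ran from 0.41 for CD74 to 1.79 for HLA-DQB1, so genes with the same letters differed in response. A match of letters does not show a bound site.

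Class I presentation also rose. Of 14 tested genes 8 rose (14.2% of all genes did) and 0 fell, with a median of 0.39. PSMB9, an interferon-inducible proteasome subunit, was at 0.91 and 0.99 at 24 h, 1.53 at 48 h and 1.88 at 96 h (late mean 1.45, SE 0.10). TAP1, a subunit of the peptide transporter of the endoplasmic reticulum, was at 1.09, 0.98, 1.26 and 1.69 (late mean 1.33, SE 0.13). TAP1 had an early mean of 0.85, and its late mean was not called different from it (adjusted p = 0.051), whereas PSMB9 rose from an early mean of 0.38 (adjusted p = 5.2e-06). HLA-B had a late mean of 1.29, HLA-E and HLA-G each had 0.76, and B2M, the light chain of class I molecules, had 0.55. NLRC5, the class I counterpart of CIITA, had a late mean of 1.33, with one of its 3 probes at -0.36 to 0.40 and the others at 1.53 to 2.53.

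Interferon-stimulated genes overlap with these lists in their known control. Of 34 tested, 14 rose and 2 fell, beside 14.2% and 13.8% of all genes, with a median of 0.14. Without the 96 h array 8 of 33 rose, beside 399 of all 4349 genes tested. IFITM3 (1.60, 0.94, 1.65 and 1.88) and IFITM1 (1.02, 0.60, 1.17 and 1.30), membrane proteins that restrict virus entry, were high from 24 h on. ISG20, an exonuclease, climbed from 0.58 and 0.71 at 24 h to 1.22 at 48 h and 1.73 at 96 h. The 2 that fell, named after their values were seen, were MX1 (late mean -0.43) and WARS1 (-0.29), and WARS1 was not called without the 96 h array (adjusted p = 0.26).

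The promoters shown here belong to 3 of the 12 highest genes and hold a repeat of the kind bound by interferon regulatory factors, searched as GAAA, any 2 bases and GAAA again, on both strands, to place it beside the values of CXCL9 and CD274. All come from the same RefSeq table (GRCh38.p14) and are written 5′ to 3′ on the gene's strand from base -220 relative to the start, with the repeat in capitals; in CD274, capitals also mark TTCNNNGAA, the palindrome bound by STAT factors.
CXCL9, chr4:76007630-76007729, minus strand: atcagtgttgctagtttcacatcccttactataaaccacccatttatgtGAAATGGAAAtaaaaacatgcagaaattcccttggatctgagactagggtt
CD274, chr9:5450322-5450431, plus strand: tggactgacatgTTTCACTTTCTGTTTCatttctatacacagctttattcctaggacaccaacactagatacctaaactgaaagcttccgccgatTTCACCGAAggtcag
AIM2, chr1:159076887-159076986, minus strand: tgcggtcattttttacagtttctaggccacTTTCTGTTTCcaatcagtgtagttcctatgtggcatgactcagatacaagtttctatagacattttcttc

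This GAAA repeat was found in 4 of the 11 highest genes that have an entry (MNDA was the other), beside 3.07% of all promoters, and in 1 of 9 of the lowest genes. TTCNNNGAA was found in 1 of 11 of the highest and 1 of 9 of the lowest, beside 6.78% of all. In CD274 a pair of overlapping repeats made 1 stretch.

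Part of the genes of JAK-STAT signalling and its feedback were high over the late arrays. Of 34 tested members 16 rose, beside 14.2% of all genes, 2 fell and 16 were not called, with a median of 0.33. STAT3 was at 1.85 and 1.49 at 24 h, 1.66 at 48 h and 0.79 at 96 h (late mean 1.37, SE 0.18, adjusted p = 6.8e-06). The 96 h value of STAT3 was the lowest of the late ones, and the late mean differed from the early mean of 1.38 by 0.00 (SE 0.22). SOCS2 was at 2.49, 2.55, 2.11 and 2.02 (late mean 2.22, SE 0.13), and PTPN1 at 2.35, 2.08, 2.43 and 2.76 (late mean 2.47, SE 0.11). BCL3, an atypical IkB protein induced by STAT3, was at 1.32, 1.60, 1.63 and 1.75 (late mean 1.61), against an early mean of 1.67. Next came PTPN2, a phosphatase of JAK and STAT proteins (late mean 1.17), IFNGR1, a chain of the interferon gamma receptor (1.11), and IL2RB, a shared receptor chain of IL-2 and IL-15 (0.98), all chosen after their values were seen. SOCS3, the feedback inhibitor best known for STAT3, showed no called change (0.01, 0.63, 0.45 and -0.13, late mean 0.21, adjusted p = 0.26). Its probes were not read on the same arrays, and one read at 1.66 at 24 h and 1.52 at 48 h had no value elsewhere.

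The 2 receptor chains of IL-10 moved in opposite directions, and they are named here after their values were seen. IL10RA fell (-0.67, -0.75, -0.32 and -0.24, late mean -0.42, SE 0.08) and IL10RB rose (0.29, 0.24, 0.54 and 0.66, late mean 0.49, SE 0.08). The early mean of IL10RA was -0.92, further below 0 than the late mean (difference 0.50, adjusted p = 0.002). The IL10 transcript itself was near 0 at 24 h, at 0.12 and 0.27, and stood at 1.05 at 48 h and 1.63 at 96 h. Its late mean was 0.96 (SE 0.16, adjusted p = 0.00013), and its 6 h values were 1.38 and 0.58.

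In the NF-kB list 7 of 37 tested genes rose, a share near the 14.2% of all genes, and 12 fell, beside 13.8%, with a median of -0.04. The genes that moved most went both ways, with BCL3 up and TNF, LTA, CCND2 and CCL22 down. Chosen after their values were seen, the subunits REL (late mean -0.51) and NFKB1 (-0.65) were lower and RELB (0.50) was higher, and the NFKB1 call was lost without the 96 h array. CCL22, a chemokine for regulatory T cells, was at -1.36 and -1.49 at 24 h, -1.50 at 48 h and -2.68 at 96 h. Among cytokines and chemokines 5 of 29 rose and 6 fell, shares near those of all genes (14.2% and 13.8%), and the others called, chosen after their values were seen, were smaller: IL12A (late mean 0.39) and CXCL11 (0.36) were higher, and VEGFA (-0.49), BMP6 (-0.38) and LTB (-0.31) lower.

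B cell receptor signalling had 6 of 22 members higher and 2 lower, beside 14.2% and 13.8% of all genes, with a median of 0.21. FCGR2B, the inhibitory Fc receptor of B cells, was at 0.41, 0.83, 1.06 and 1.70 (late mean 1.13, SE 0.07), and SH3BP5, an inhibitor of BTK, at 0.85, 0.65, 0.92 and 1.28 (late mean 0.98, SE 0.07). DAPP1, an adaptor downstream of PI3 kinase, had a late mean of 0.71, which was not called with a single probe (adjusted p = 0.124). The members that fell were CD79A (late mean -0.59) and NFATC1 (-0.45). Among trafficking receptors and regulators 5 of 15 rose and 2 fell, beside the same 14.2% and 13.8% of all genes. GPR183 led the rises, and CXCR4 and CXCR5 had late means of 0.47 each. The 2 that fell were CXCR3 (-1.39, -1.82, -0.66 and -1.32) and CCR2 (-0.54, -1.05, -0.89 and -1.28). CXCR3 is the receptor of CXCL9, so ligand and receptor transcripts moved in opposite directions in the same cultures. Without the 96 h array 3 of 26 costimulation and adhesion genes were higher and 2 lower. Of all 4349 genes tested in that setting 399 were higher and 314 lower. Over all 4 late arrays 5 were higher and 5 lower, beside 14.2% and 13.8% of all genes. Those higher included, beside CD274, ITGB7, an integrin of gut homing (0.09, 0.45, 1.02 and 1.38), and CD48, a ligand of 2B4 (0.06, 0.68, 0.82 and 0.84). Lower with and without the 96 h array, and chosen after their values were seen, were CD40, the receptor for T cell help (late mean -0.42), and TNFSF9 (-0.28). The costimulatory ligand CD80 (late mean -0.40) lost its call without that array.

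Genes of the cell cycle fell by small amounts. Of 43 tested, 19 were lower, beside 13.8% of all genes, and 2 were higher, with a median of -0.21. Without the 96 h array 10 were lower, beside 314 of all 4349 genes tested. With arrays scaled to equal spread 13 were lower, beside 364 of 4442. At single times 3 were lower at 24 h, 4 at 48 h and 10 at 96 h. Of all genes 4.39%, 1.73% and 6.32% were lower at these times. CDC25A, the phosphatase that releases CDK2 at the G1/S step, was at -0.60, -1.26, -0.90 and -1.07 (late mean -0.97, SE 0.10, adjusted p = 2e-06). CCNB1, the mitotic cyclin B1, was at -0.04, -0.39, -0.66 and -0.44 (late mean -0.44, SE 0.09). MKI67, the gene of the proliferation antigen Ki-67, was at -0.15, -0.24, -0.16 and -0.39 (late mean -0.25, adjusted p = 0.011). Its call was lost without the 96 h array (adjusted p = 0.15), after scaling (0.066) and with the IL-10 arrays alone (0.059). CCNG2, a cyclin that is high in resting cells, rose with time, from 0.89 and 0.98 at 24 h to 1.36 at 48 h and 2.36 at 96 h (late mean 1.55, SE 0.09). After CCND2 and CDC25A the lowest were NEK2, a kinase of centrosome separation (late mean -0.92), CENPE, a kinetochore motor (-0.66), and CDC6, which licenses replication origins (-0.65). TOP2A, the topoisomerase of dividing cells (-0.48), CCNA2, cyclin A2 (-0.45), and CDC20, an activator of the anaphase-promoting complex (-0.41), were also called. The other that rose was CCND3, cyclin D3, at 0.45, 0.44, 0.32 and 0.03.

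DNA replication and nucleotide synthesis had 0 of 30 members risen and 11 fallen, beside 13.8% of all genes fallen, with a median of -0.21. Without the 96 h array 10 fell, beside 314 of all 4349 genes tested. With the arrays scaled to equal spread 6 fell, beside 364 of 4442. MCM4 (late mean -0.53), MCM10 (-0.48) and MCM2 (-0.47), which load or fire replication origins, were the lowest. MCM10 was the steadiest, at -0.41, -0.53, -0.48 and -0.48. The MCM4 call was lost without the 96 h array (adjusted p = 0.20). The MCM2 call was lost without the 48 h array (adjusted p = 0.065) and without 24 h replicate 2 (adjusted p = 0.054). Neither MCM4 nor MCM2 was called after scaling (adjusted p = 0.071 and 0.062) or with the IL-10 arrays alone (0.069 and 0.067). The late means of these MCM genes were smaller in size than that of CCND2, at -2.04.

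Inhibitors of cyclin-dependent kinases and p53 targets had 6 of 17 members higher and 2 lower, beside 14.2% and 13.8% of all genes. Their median was 0.13. Without the 96 h array 3 of 16 were higher and 0 lower, beside 399 and 314 of all 4349 genes tested. CDKN1B (p27), which holds resting cells in G1, was level at 0.56, 0.52, 0.51 and 0.65 (late mean 0.57, SE 0.09, adjusted p = 0.00013). CDKN1A (p21) was below 0 on all 4 late arrays, at -0.22 and -0.44 at 24 h, -0.47 at 48 h and -0.91 at 96 h (late mean -0.57, SE 0.13). Its 6 early values were 0.61 to 1.92, so the early and late arrays lay on opposite sides of 0. The fall below 0 was not called without the 96 h array (adjusted p = 0.073). TP53I3, a p53 target, had values of 0.58, 0.50 and 0.66 on the 3 late arrays that measured it.

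MYC, a driver of growth and a gene that PRDM1 is known to repress, showed no called change (-0.09, -0.41, -0.27 and -0.11, late mean -0.21, SE 0.17, adjusted p = 0.39). Of 18 genes of its growth list 6 fell and 2 rose, beside 13.8% and 14.2% of all genes, with a median of -0.18. Without the 96 h array 1 fell and 0 rose, beside 314 and 399 of all 4349 genes tested. NCL (nucleolin) was the lowest, at -0.25, -0.84, -1.06 and -1.37 (adjusted p = 0.069 without the 96 h array), and NOP56, a box C/D ribonucleoprotein, had a late mean of -0.71. NOP56 was not called without the 96 h array (adjusted p = 0.097), the 48 h array (0.0624) or 24 h replicate 2 (0.071), after scaling (0.0516) or with the IL-10 arrays alone (0.141). Ribosomal protein genes had 1 of 22 called, beside 28.0% of all genes. It was RPS29, with a late mean of 0.30. Its call was lost without the 96 h array (adjusted p = 0.39) and without 24 h replicate 1 (late mean 0.24).

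Survival genes had 7 of 27 members higher and 4 lower, beside 14.2% and 13.8% of all genes, with a median of 0.07. Without the 96 h array 3 were higher and 2 lower, beside 399 and 314 of all 4349 genes tested. MCL1, an anti-apoptotic BCL2 relative, was at 1.00, 0.85, 0.90 and 1.18 (late mean 1.00, SE 0.07), and BIRC2 (cIAP1) at 1.30, 0.93, 0.88 and 0.87 (late mean 0.95). BCL2 itself was lower, with a late mean of -0.54 (named after its values were seen). CASP4, an inflammatory caspase, was at 0.24 and 0.41 at 24 h, 0.95 at 48 h and 1.15 at 96 h. PMAIP1 (NOXA), a pro-apoptotic BCL2 relative, was lower (late mean -0.42, chosen after its value was seen). Glycolysis and hypoxia genes had 7 of 27 higher and 3 lower, beside 14.2% and 13.8% of all genes. The rises were led by NDRG1, a stress-induced gene (0.20, 0.65, 0.82 and 1.88), and PFKFB3, an activator of glycolysis (0.79, 0.73, 0.96 and 1.20). SLC2A3, a glucose transporter, had a late mean of 0.67. Sterol genes had 2 of 11 higher and 2 lower, shares near those of all genes (14.2% and 13.8%). Without the 96 h array 0 were higher and 1 lower, beside 399 and 314 of all 4349 genes tested. INSIG1, at -1.35, -1.72, -1.69 and -1.34, was steady, while the rises of SREBF2 and IDI1 were lost without the 96 h array (adjusted p = 0.35 and 0.26), and that of SREBF2 also without 24 h replicate 1 (0.0749).

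**Figure D3:**
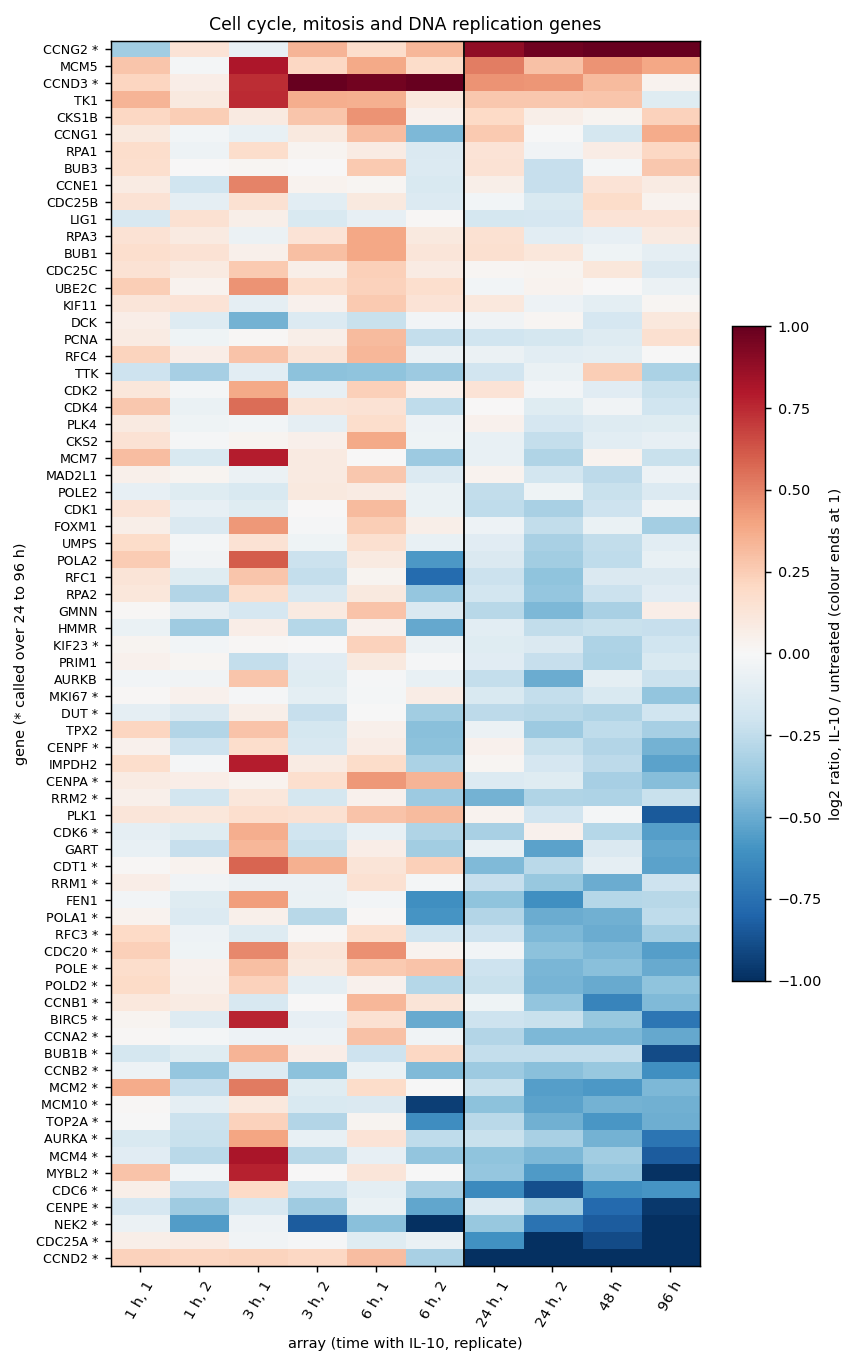
Log2 ratio of treated over untreated cells for the tested cell cycle, mitosis and DNA replication genes (rows, ordered by late mean) on the 10 arrays (columns, by hours with IL-10 and replicate); asterisks mark genes called over the late arrays and the colour scale ends at 1. The median row is at -0.21 over the late arrays in both lists, CCND2 is beyond the scale from 24 h on and CCNG2 reaches 2.36 at 96 h.

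Markers of other cell types were listed to see what else moved. Of 15 tested myeloid markers 6 rose and 3 fell, beside 14.2% and 13.8% of all genes, with a median of 0.20. MNDA (1.11, 1.47, 1.82 and 2.63) stood apart, and the other 5 that rose (ITGAX, FCER1G, CD14, ITGAM and CD68, named after their values were seen) had late means of 0.36 to 0.61. CSF1R, a defining receptor of the lineage, had a late mean of -0.01, and MRC1 (late mean -0.64) and CD1C (-0.62), which mark macrophages and dendritic cells, fell. Without the 96 h array CD14 (adjusted p = 0.080), ITGAM (0.15) and MRC1 (0.21) were not called, nor was MRC1 without 24 h replicate 1 (0.0716). Of 27 T and NK cell markers 2 rose and 1 fell, shares below the 14.2% and 13.8% of all genes. Those that rose were CD4 (late mean 0.38) and CD3E (0.32), and CD5 fell (-0.72). CD4 was at 0.92 on 24 h replicate 2, and without that array its late mean was 0.23 (adjusted p = 0.157). It was also not called without the 48 h array (0.0562), without the 96 h array (0.0665), with the run as a random block (0.0661) or after scaling (0.129). Of 11 erythroid and stromal markers 1 rose, KRT18 (0.47), and 0 fell, again beside 14.2% and 13.8% of all genes. Ratios do not show whether any of these transcripts is above background, and the part of other cells in the results was not tested.

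**Figure D4:**
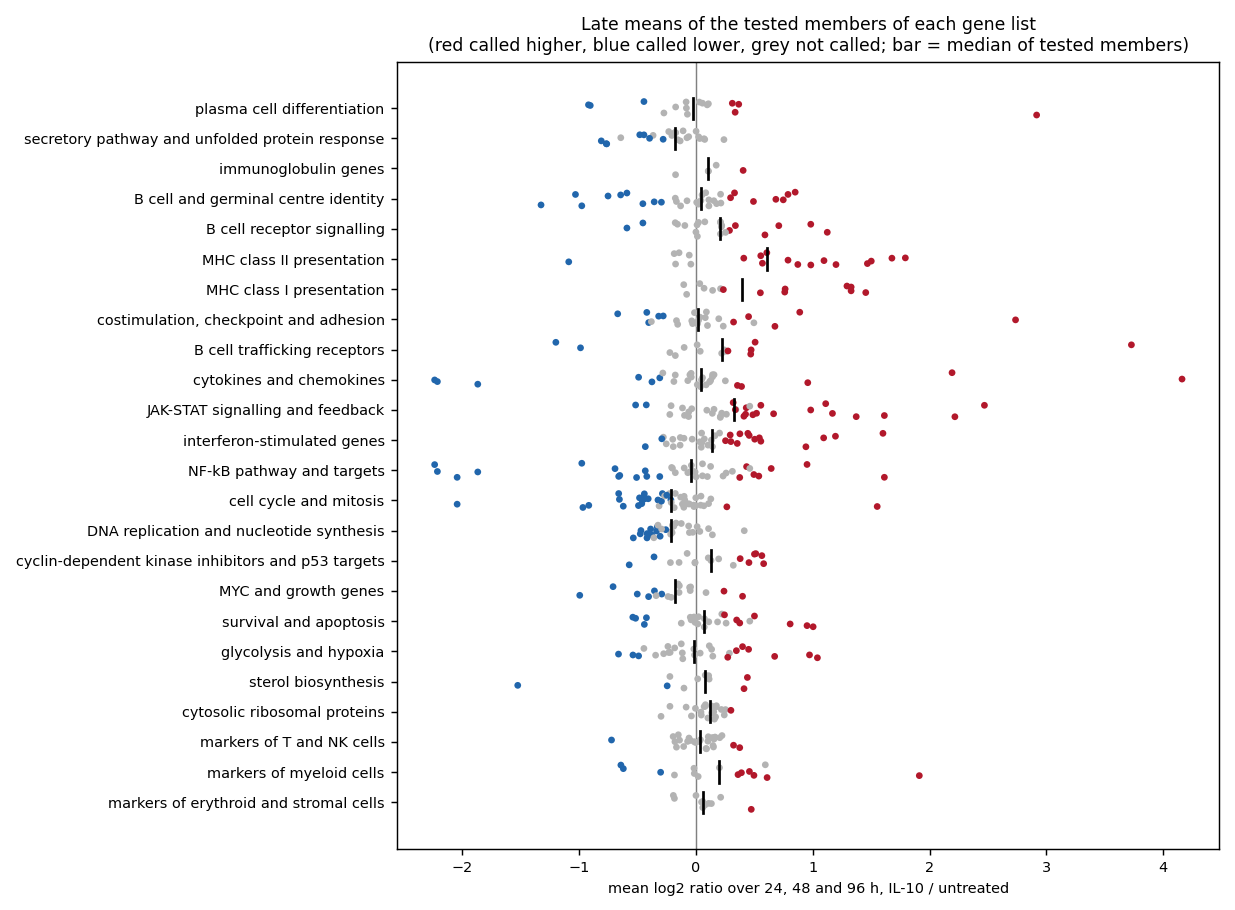
Late mean log2 ratio (horizontal axis, treated over untreated) of every tested member of the 24 gene lists (rows); red points were called higher, blue lower, grey not called, and the bar is the median of the tested members. The class II median is 0.61, the cell cycle and DNA replication medians are both -0.21, and single genes such as CXCL9 and PRDM1 stand far from their lists.

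Whether the late response was the early one carried on was asked by setting the late mean against the mean of 1, 3 and 6 h in 1 fit. Of 4354 genes tested, 600 differed (13.8%), 353 higher late (8.11%) and 247 lower late (5.67%), and 310 differed without the 96 h array. Of 624 genes called higher over the late arrays, 301 were higher late than early, 6 were lower late than early, and 317 were not called different. Of 607 called lower over the late arrays, 208 were lower late than early, 2 were higher late than early and 397 were not called different. For 140 of the 624 and 99 of the 607 the difference was called and the early mean had the opposite sign. Sizes of the late and early means were not compared in these counts.

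DHRS9 differed most, with an early mean of 0.68 and a difference of 2.44 (SE 0.12). CXCL9 (difference 2.33, from an early mean of 1.83) and PRDM1 (2.07, from 0.84) added to a rise already under way. HLA-DQA1 (1.99), HLA-DQB1 (1.91) and HLA-DRA (1.40) started from early means between -0.31 and 0.06. CXCL13 (1.90), CD274 (1.63) and GPR160, an orphan receptor (1.62), completed the highest set. CIITA differed by 0.77 (SE 0.13, adjusted p = 0.00025).

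CCND2 had the largest fall relative to the early arrays (-2.19, SE 0.14), followed by TMEM161B (-2.05), CDKN1A (-1.75), LTA (-1.63), ICOSLG (-1.56), ADIRF (-1.56), CCL22 (-1.44) and HTR3A (-1.43). TMEM161B rests on its 96 h value of -5.46, the other late values being -0.62, 0.53 and -0.17, and its difference was -0.26 without that array. The difference of LTA was lost without the 96 h array (adjusted p = 0.0526). TNF fell by a further 1.38 and CCNB1 by 0.52 relative to the early arrays.

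Beside the 8.11% and 5.67% of all genes, 11 of 19 class II genes were higher late than early and 2 were lower, and 10 of 34 interferon-stimulated genes were higher and 0 lower. Of 43 cell cycle genes 11 were lower late than early and 1 was higher, and of 30 replication genes 6 were lower. JAK-STAT genes had 9 of 34 higher and 2 lower, and STAT3 (difference 0.00, adjusted p = 1) and BCL3 (-0.05, adjusted p = 0.84) were among those not called.

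**Figure D5:**
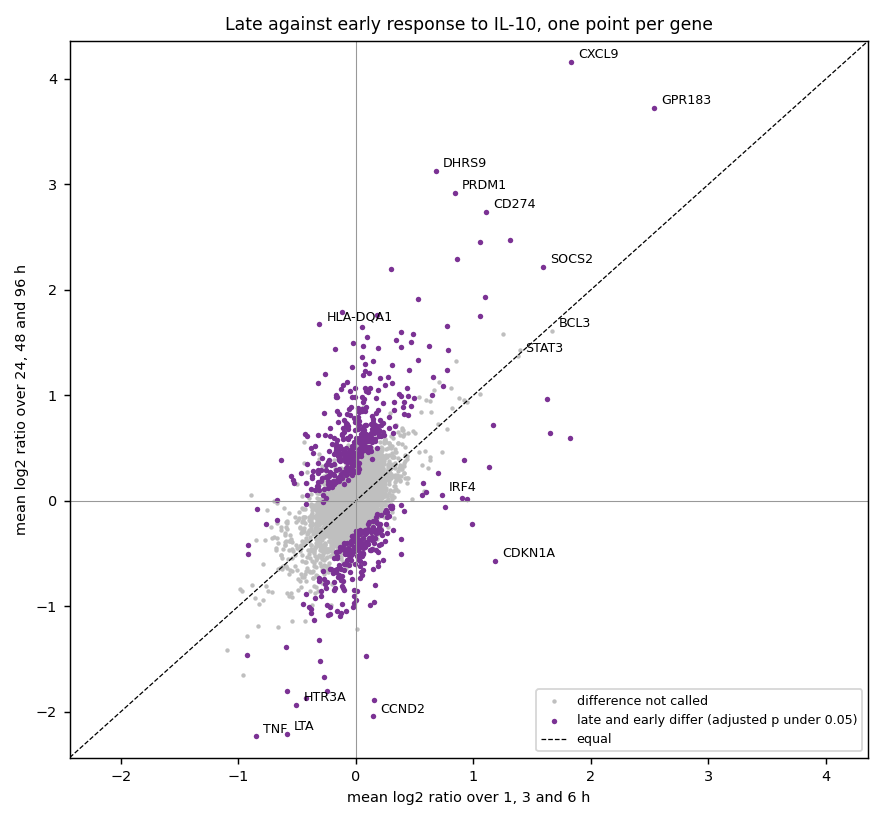
Mean log2 ratio over 24, 48 and 96 h (vertical axis) against that over 1, 3 and 6 h (horizontal axis), 1 point per gene; purple points differ between late and early at an adjusted p under 0.05 and the dashed line marks equality. STAT3 and BCL3 lie on the line, PRDM1 and HLA-DQA1 above it, and CDKN1A (1.18 early, -0.57 late) lies below it across 0.

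The last comparison within the time course set the single 96 h array against the 2 arrays of 24 h. The 96 h array has no replicate, so it is assumed to vary like the replicates of the other groups, and 13 genes were called when that spread came from the IL-10 arrays alone. Of 4355 genes 75 were called (1.72%), 53 higher at 96 h (1.22%) and 22 lower (0.505%). The count was 46 without 24 h replicate 1, 48 without 24 h replicate 2, 137 with the replicate number as a block and 12 with arrays scaled to equal spread, so it depends on how the wider 96 h array is scaled. In the class II list 5 of 18 were higher at 96 h than at 24 h and 0 were lower. HLA-DQA1 was higher by 1.97 (SE 0.18, adjusted p = 2.9e-06). METTL14, a subunit of the RNA methyltransferase for m6A, was at 0.48 and 0.87 at 24 h, 1.57 at 48 h and 3.03 at 96 h (difference 2.36). GPR160 (difference 2.36), SLA, a Src-like adaptor (1.92), and GLRX (1.77) climbed in the same way. With the IL-10 arrays alone the calls of SLA, CXCL13 and HTR3A were lost. The rise of CXCL13 (2.34) was not called after scaling (adjusted p = 0.63), and neither were those of DHRS9 (1.77) and GLRX (adjusted p = 0.999 and 0.298). HTR3A went from a mean of -2.95 to -1.17 (difference 1.78), which was not called without 24 h replicate 2 (adjusted p = 0.101). PRDM1 rose by 1.38 (adjusted p = 0.027), which was not called without 24 h replicate 1 (adjusted p = 0.16) or with the median of its probes (0.11). After scaling the PRDM1 difference was 0.39 (adjusted p = 0.999), and with the IL-10 arrays alone it was not called (0.526).

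The largest falls after 24 h were read mostly from the 96 h array, where TMEM161B stood at -5.46 after -0.17 at 48 h, and CDK19 at -2.38 after -0.43. TMEM161B changed by -5.42, ICOSLG by -3.09, CDK19 by -2.29, TXLNA by -1.85, NUP205 by -1.51 and REST by -1.37. The calls of CDK19 (adjusted p = 0.058) and NUP205 (0.189) were lost without 24 h replicate 2, and that of REST without replicate 1 (0.069) or replicate 2 (0.078). In TXLNA one of 4 probes read -6.81 at 96 h while the others read -0.27 to -0.15, and the difference was -0.20 with the median of its probes. With the probe of ICOSLG that has the most values the difference was -0.33. After scaling to equal spread, or with the IL-10 arrays alone, none of CDK19, NUP205, REST, MACROD2 and HEATR1 was called. HEATR1 (-1.43), a factor of ribosome synthesis, fell in steps, from -0.21 and -0.65 at 24 h through -0.84 at 48 h to -1.86 at 96 h. MACROD2 changed by -1.42. After scaling the differences of MACROD2 and HEATR1 were -0.77 and -0.84. Both lost their call without 24 h replicate 1 (adjusted p = 0.181 for MACROD2 and 0.127 for HEATR1).

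At 24 h IL-10 in OCI-Ly3 could be set against IL-6 in OCI-Ly10, another cytokine that acts through STAT3, although line and cytokine cannot be told apart and IL-6 had 1 array. Of 3855 genes 150 differed (3.89%), 76 higher with IL-10 (1.97%) and 74 lower (1.92%), and 255 differed with the replicate number as a block. GPR183 was at 0.79 with IL-6 against a mean of 3.79 with IL-10 (difference 3.00, SE 0.32), and CXCL9 at 0.79 against 3.67 (difference 2.88, SE 0.41). SOCS2 was at 0.14 (difference 2.38), CD274 at 0.03 (2.21), PRDM1 at 0.17 (2.06) and HLA-DRA at 0.12 (1.06). None of these last 4 was above 0.17 on the IL-6 array.

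STAT3 itself was at -0.02 with IL-6 at 24 h (difference 1.69, adjusted p = 0.018), and this was not called without 24 h replicate 1 of IL-10 (adjusted p = 0.107). BCL6 differed by 0.66, and the call was lost without the same array (difference 0.49). After scaling neither STAT3 (difference 1.55) nor BCL6 (0.61) was called. BCL6 was also not called with the median of its probes or with the run as a random block. TNF was at -0.61 with IL-6, less low than with IL-10 (difference -1.60, SE 0.19). HTR3A was at 0.09 (difference -3.04). SPP1 (osteopontin) was at 2.58 with IL-6 and at -0.08 and -0.10 with IL-10 (difference -2.67), and TK2, the mitochondrial thymidine kinase, at 1.95 against 0.06 and -0.23 (difference -2.03). PIP5K1A, a lipid kinase, was at 1.62 with IL-6, and its 24 h IL-10 replicates read -0.13 and -1.51 (difference -2.44). Of 17 class II genes tested, 3 were higher with IL-10 and 0 were lower, beside 1.97% and 1.92% of all genes.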

How the data were processed

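The values are deposited log2 ratios of Cy5 (treated) over Cy3 (untreated) per probe. Per the labels, total RNA was extracted with Trizol and labelled by oligo-dT-primed reverse transcription. No source used here gives the scanner, the normalization or the log base, and base 2 was assumed. The values span -7.868 to 5.81, array medians lie at -0.031 to 0.011, and 12.6% of values are blank. The files hold no channel intensities, so signal over background is unknown, and the number of arrays limits the precision.

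Of 15246 probes 10169 carry 1 gene symbol, 4 several and 5073 none. Symbols were updated by Entrez identifier for 10128 probes, and probes of a gene were averaged to give 4604 genes. Each array was centred on its median. With limma 3.58.1 in R 4.3.3, means of each experiment and time were fitted over all 40 arrays, with eBayes and Benjamini-Hochberg adjustment over all genes tested. Testing required values on 75% or more of the arrays in a comparison and at each of its times. The fit was tested on simulated data. Tables and figures used Python 3.11.15, pandas 2.3.3, numpy 2.4.6 and matplotlib 3.10.9.

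Replicate numbers paired the arrays: differences between replicates 1 and 2 correlated across genes between times at 0.393 to 0.590, and the numbers coincide with runs of array identifiers. A replicate block, the run as a random block, other scaling, other probe rules, IL-10 arrays fitted alone and left-out arrays were alternatives.

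The members and the 24 gene lists were chosen with earlier results of these data known. Genes named were the 12 highest and 12 lowest called late with 1 sign on every late array measured, up to 3 called members per list, the 8 highest and 8 lowest of late minus early and of 96 h minus 24 h, the 4 highest and 4 lowest against IL-6, and PRDM1, IRF4, XBP1, BCL6, PAX5, CIITA, HLA-DRA, CD74, MYC, MKI67, CCNB1, CDKN1A, STAT3, SOCS3, IL10 and TNF. Other genes were named after their values were seen.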

Additional observations from a re-analysis of the deposited data

Results flagged for a closer look

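These genes are listed because the ratio differed between times, or between the cytokines and lines, by a limma test of the difference itself (Benjamini-Hochberg adjusted p under 0.05). No explanation was weighed.

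Between the late arrays (24, 48 and 96 h) and the early ones (1, 3 and 6 h), the log2 difference was 2.44 for DHRS9, 2.33 for CXCL9, 2.07 for PRDM1, 1.99 for HLA-DQA1, 1.91 for HLA-DQB1, 1.90 for CXCL13, 1.63 for CD274, 1.62 for GPR160, 1.40 for HLA-DRA and 0.77 for CIITA. It was -2.19 for CCND2, -2.05 for TMEM161B, -1.75 for CDKN1A, -1.63 for LTA, -1.56 for ICOSLG, -1.56 for ADIRF, -1.44 for CCL22, -1.43 for HTR3A, -1.38 for TNF, -0.67 for IRF4 and -0.52 for CCNB1. TMEM161B and LTA were not called without the 96 h array, and LTA and IRF4 were not called with the IL-10 arrays alone.

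Between 96 h and 24 h it was 2.36 for GPR160, 2.36 for METTL14, 2.34 for CXCL13, 1.97 for HLA-DQA1, 1.92 for SLA, 1.78 for HTR3A, 1.77 for DHRS9, 1.77 for GLRX and 1.38 for PRDM1. It was -5.42 for TMEM161B, -3.09 for ICOSLG, -2.29 for CDK19, -1.85 for TXLNA, -1.51 for NUP205, -1.43 for HEATR1, -1.42 for MACROD2 and -1.37 for REST. TMEM161B, ICOSLG and TXLNA each rest on a single spot that was very low at 96 h. CDK19, NUP205, HEATR1, MACROD2 and REST were not called after scaling to equal spread or with the IL-10 arrays alone. Among the rises, CXCL13, DHRS9, GLRX and PRDM1 were not called after scaling. CXCL13, SLA, HTR3A and PRDM1 were not called with the IL-10 arrays alone.

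Between IL-10 in OCI-Ly3 and IL-6 in OCI-Ly10 at 24 h it was 3.00 for GPR183, 2.88 for CXCL9, 2.38 for SOCS2, 2.21 for CD274, 2.06 for PRDM1, 1.69 for STAT3, 1.06 for HLA-DRA and 0.66 for BCL6. It was -3.04 for HTR3A, -2.67 for SPP1, -2.44 for PIP5K1A, -2.03 for TK2 and -1.60 for TNF. The differences of STAT3 and BCL6 were not called after scaling to equal spread or without 24 h replicate 1 of IL-10.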

How the results depend on the processing

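Of 140 results for named genes, 34 lost a call under at least 1 setting. The rest kept their side of the threshold under every setting run. Among the rest, the late means of IRF4 and PAX5, which were not called, changed sign. Scaling to equal spread took 22 calls, fitting the IL-10 arrays alone 21 and leaving out the 96 h array 14. The late mean of IRF4 was -0.0055 without the 48 h array, and that of PAX5 was -0.0321 with the median of its probes, -0.115 with its probe with the most values and -0.0036 without the 48 h array. The replicate block changed no call of a named gene, but called 137 genes for 96 h minus 24 h (75 without it) and 255 for IL-10 against IL-6 (150 without it). With arrays scaled to equal spread, 791 genes were called late, 161 at 48 h, 169 at 96 h, 297 for late minus early and 12 for 96 h minus 24 h. With the IL-10 arrays fitted alone the counts were 818 late, 173 at 24 h, 86 at 48 h, 295 at 96 h, 240 for late minus early and 13 for 96 h minus 24 h. Without the 96 h array they were 713 late and 310 for late minus early. Leaving out 24 h replicate 1 or 2 gave 1023 to 1160 late, 161 to 260 at 24 h, 499 to 553 for late minus early, 46 to 48 for 96 h minus 24 h and 102 to 115 for IL-10 against IL-6. Leaving out any 1 replicate of 1, 3, 6 or 24 h gave 497 to 608 for late minus early. The single arrays of 48 h and 96 h have no replicate to leave out, and the comparison with IL-6 could not be made from IL-10 arrays alone. With its probe with the most values MKI67 was at -0.00 (adjusted p = 0.995) and CD3E was not called (adjusted p = 0.288). The cause of these shifts was not tested.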

Other observations

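Of 4269 probes tested that were not assigned to a gene here, 529 were higher and 339 lower over the late arrays, by the same limma test. Of all genes 14.2% were higher and 13.8% lower. Gene values are averages of probes, so these shares are not directly comparable with counts of single probes.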
